A study of Phalacrocorax auritus with 15 samples.

Results

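Livers of double-crested cormorant embryos that had received ethinylestradiol (EE2) in the egg were compared between 2 doses. The 10 exposed livers were chosen by the dose class that heads their column in the count table: 5 at a nominal 33.3 µg per g egg (labelled actual dose 31.9) and 5 at 3.33 µg per g egg (labelled actual dose 2.3), out of 15 livers in all. The other 5 received the solvent, dimethyl sulfoxide (DMSO), and serve here as a reference level. Each egg received 50 µl through its air cell before incubation, and left-lobe liver was taken on embryonic day 14 per the sample labels, or day 16 per the text on the series' design. The nominal doses differ 10-fold and the labelled actual doses 13.9-fold. The labels number the replicates without tying each to an egg of its own. The p-values therefore reflect spread among samples that may be technical.

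EE2 is a synthetic oestrogen made for oral contraceptives and reaches surface water through sewage. In birds and other egg-laying vertebrates the liver carries oestrogen receptors, and oestrogen makes it produce and secrete yolk precursors such as vitellogenin. Males and embryos do not normally produce them in quantity, but their livers can do so when given oestrogen. The deposited feature IDs are not paired with gene names, so neither these genes nor liver markers could be looked up. Features are described by ID, abundance rank or response.

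Total counts ranged from 13107675 to 19653262 in the exposed livers. The test between doses covered 12717 of 16181 features, which held 99.76 to 99.96% of the counts of each exposed library. Depth, the number of features with a count, the share of counts in the 20 most abundant features and the first 2 principal components were each compared between doses. Of these 5 measures none passed (exact permutation test, two-sided, smallest adjusted p = 0.0794; the smallest unadjusted p the design allows is 0.00794).

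Most features had similar levels at the 2 doses. Of 12717 features, 10790 (84.8%) were shown equal within 2-fold, 7618 (59.9%) within 1.5-fold and 1026 (8.07%) within 25% (upward, or the inverse ratio downward). Equality was shown by 2 one-sided tests of the log2 difference against the margin, in the edgeR quasi-likelihood fit, with p-values adjusted over all features and called at 0.05. One feature passed the edgeR test of a difference, higher at 33.3 µg/g (0.00786% of those tested, adjusted p = 0.0262). The remaining 1926 features (15.1%) were neither called nor shown equal.

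**Figure D1:**
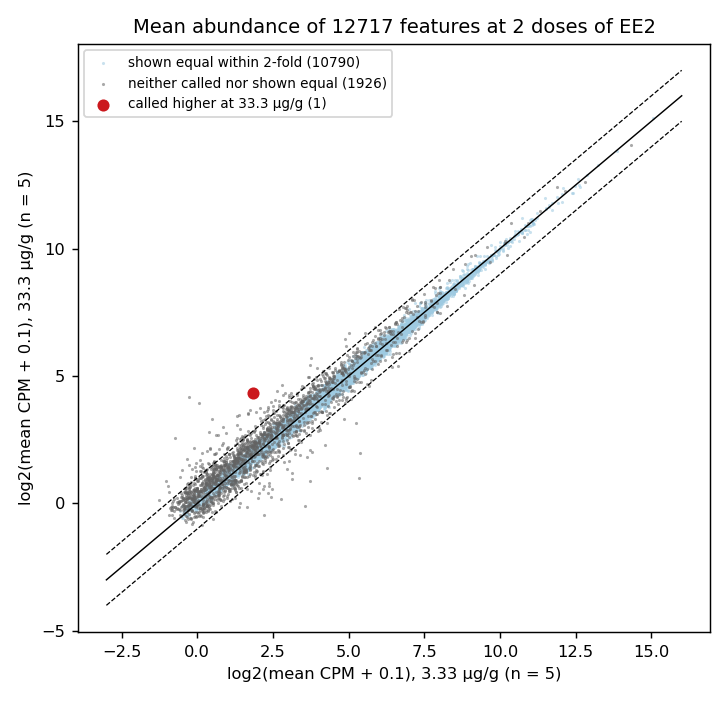
Mean abundance of each tested feature at 3.33 µg/g (horizontal) and 33.3 µg/g (vertical), as log2 of the mean CPM (read counts scaled to the library total) of 5 libraries plus 0.1. The solid line marks equality and the dashed lines 2-fold; the 10790 features shown equal lie along the diagonal, the feature called higher lies above the upper dashed line, and the 1926 features that were neither are mostly of low abundance.

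The differences themselves were small. The log2 difference, taken throughout as 33.3 minus 3.33 µg/g, had a median of 0.00 over all features, and 50.5% of features were higher at the higher dose. This share varied with mean CPM over the exposed livers. It was 63.9% under 1 CPM, 62.4% from 1 to 10 and 48.5% from 10 to 100 CPM. From 100 to 1000 CPM it was 36.1%, and at 1000 CPM or more 39.4%. Whether these shares differ was not tested. From the 5th to the 95th percentile the ratio ran from 0.807 to 1.46. The median difference in either direction was 1.09-fold. The end of the 90% interval farther from equality had a median of 1.36-fold over features. In the point estimate 84% of features differed by under 25%, and 190 (1.49%) by over 2-fold. At an unadjusted edgeR p under 0.05 there were 401 higher (3.15%) and 444 lower features (3.49%), 6.64% of those tested together.

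How well equality could be shown followed abundance, given here as mean CPM (counts scaled to the library total) over the exposed livers. Among 316 features under 1 CPM, 34.2% were shown equal within 2-fold, with a median standard error of 0.44 on the log2 scale. From 1 to 10 CPM the share was 62.6% of 3108, from 10 to 100 CPM 93.7% of 7473, and from 100 to 1000 CPM 95.6% of 1716. Of the 104 features at 1000 CPM or more, 93 (89.4%) were shown equal within 2-fold but only 47.1% within 1.5-fold. The median SD of log2 CPM among livers of a dose was larger in these most abundant features (0.33 at 33.3 µg/g and 0.45 at 3.33 µg/g) than from 100 to 1000 CPM (0.17 and 0.22). Of the 1926 features that were neither, 1370 had a mean under 10 CPM, and their median standard error was 0.48 against 0.14 in features shown equal. Their median SD of log2 CPM was 0.73 at 33.3 µg/g and 0.81 at 3.33 µg/g, against 0.23 and 0.27 over all features.

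**Figure D2:**
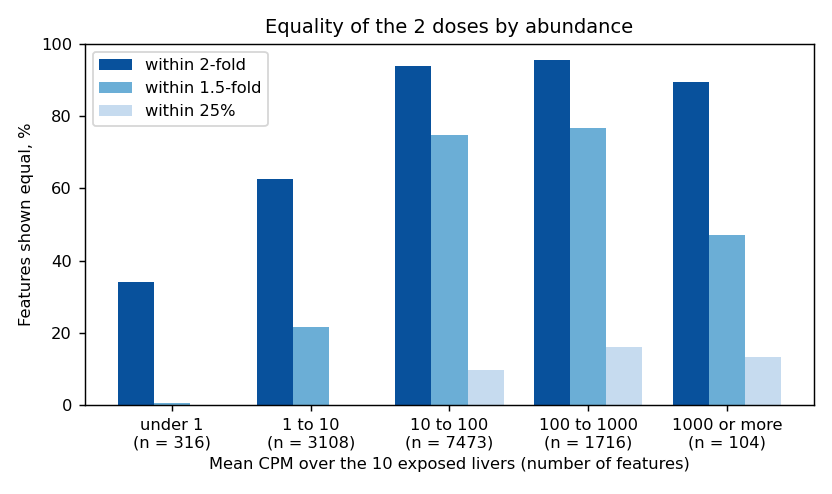
Percentage of tested features shown equal between the doses (vertical) in 5 ranges of mean CPM (horizontal, with the number of features). Bars show margins of 2-fold, 1.5-fold and 25%; the 2-fold share rises from 34.2% under 1 CPM to 95.6% at 100 to 1000 CPM, and the 1.5-fold share falls back to 47.1% at 1000 CPM or more.

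The feature that differed was s2f_0000923008. Its levels at 33.3 µg/g were 18.1, 16.2, 32.1, 22.4 and 11.9 CPM in replicates 1 to 5. At 3.33 µg/g they were 2.31, 4.03, 4.07, 3.27 and 3.89 CPM. Every liver at the higher dose was above every liver at the lower dose. The means were 20.1 ± 7.70 and 3.51 ± 0.747 CPM (SD, n = 5 each), a ratio of 5.65 with a 95% interval of 3.82 to 8.36. On the log2 scale it differed by 2.499, SE 0.26 (adjusted p = 0.0262, edgeR).

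In solvent livers this feature was at 20.3, 6.12, 42.2, 16.3 and 16.2 CPM. Each liver at 3.33 µg/g was below every solvent liver, whereas the levels at 33.3 µg/g lay inside the solvent range, whose lower end was replicate 2. Against solvent its log2 difference was -3.18 at 3.33 µg/g (edgeR adjusted p = 0.000685), where 13.1% of 13014 features rose and 13.3% fell. At 33.3 µg/g, where 13.3% of features rose and 14.4% fell, it was -0.68 and was not called (edgeR adjusted p = 0.317). With solvent replicate 2 left out it was called at 33.3 µg/g too, at -0.96 (edgeR adjusted p = 0.0355; 20.7% of 13066 features rose and 20.8% fell). At 3.33 µg/g it was then -3.45 (edgeR adjusted p = 1.68e-05; 19.1% rose and 18.9% fell). These log2 differences rest on trimmed-mean (TMM) scaling. On CPM of the library total the means were 20.1 at 33.3 µg/g, 3.51 at 3.33 µg/g and 20.2 in solvent. The fits against solvent were not repeated under another scaling, so whether the feature fell at 33.3 µg/g without TMM was not tested. All exposed libraries carry one column prefix and all solvent libraries another, so a batch marked by the prefix and exposure cannot be told apart. The comparison of the doses lies within one prefix. In whole liver, fewer cells of a type and less RNA per cell cannot be told apart either.

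The size of this difference was stable across the alternatives run, from 2.32 to 2.64 on the log2 scale, but its call was not. Leaving out any one exposed liver other than replicate 3 or 5 at 33.3 µg/g ended the call, with adjusted p from 0.0558 to 0.192 (edgeR). So did limma-voom (adjusted p = 0.434), the replicate number as a block (edgeR adjusted p = 0.331) and a fit that included the solvent livers (edgeR adjusted p = 0.9995). DESeq2 kept it (adjusted p = 6.65e-15).

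The next feature by p among those higher at 33.3 µg/g, and the first 2 among those lower, differed by small amounts. Each was shown equal within 2-fold. The feature s2f_0001953001 was at 43.2, 46.7, 58.0, 44.5 and 42.6 CPM at 33.3 µg/g and at 32.8, 33.4, 30.2, 37.3 and 42.2 CPM at 3.33 µg/g. The livers did not overlap, the ratio was 1.33 with a 95% interval of 1.18 to 1.49, and the edgeR adjusted p was 0.733. DESeq2 called it (adjusted p = 0.00604). In solvent it was at 15.5 to 69.8 CPM, the highest in replicate 2 and at most 24.7 in the other 4.

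Lower at the higher dose were s2f_0006079003 and s2f_0000509006. The first was at 20.6, 21.2, 21.7, 19.0 and 24.2 CPM at 33.3 µg/g and at 28.0, 25.7, 30.7, 37.5 and 33.7 CPM at 3.33 µg/g. Its livers did not overlap, and the ratio was 0.683 with a 95% interval of 0.587 to 0.795 (adjusted p = 0.733 by edgeR and 0.00187 by DESeq2). Solvent livers held 9.82 to 15.7 CPM, below all exposed livers, on CPM scaled to the library total alone. In the edgeR fit to all 15 libraries its log2 difference from solvent was 0.86 at 3.33 µg/g (adjusted p = 0.000353). At 33.3 µg/g it was 0.31 and was not called (edgeR adjusted p = 0.0874). The second was at 102 to 136 CPM at 33.3 µg/g and at 138 to 204 CPM at 3.33 µg/g, again without overlap, a ratio of 0.770 with a 95% interval of 0.691 to 0.858 (adjusted p = 0.733 by edgeR and 1.80e-05 by DESeq2). Its solvent range was 71.2 to 105.5 CPM. In the same fit its log2 difference from solvent was 0.40 at 3.33 µg/g (edgeR adjusted p = 0.0198). At 33.3 µg/g it was 0.02 and was not called (edgeR adjusted p = 0.899). On CPM of the library total its means were 124 at 33.3 µg/g and 87.8 in solvent. For both features the fit against solvent was run with TMM scaling alone, so the response at 33.3 µg/g under another scaling was not tested.

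**Figure D3:**
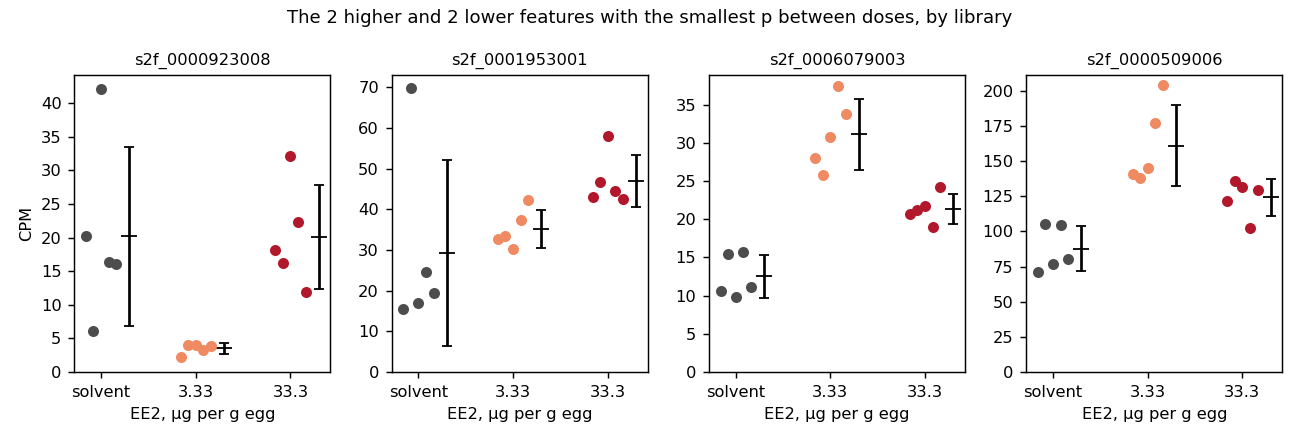
CPM of the 2 higher and 2 lower features with the smallest p between doses, in each of 5 libraries of solvent, 3.33 and 33.3 µg/g (points), with mean and SD beside them. By edgeR only s2f_0000923008 was called between doses, by DESeq2 all 4; the 5 livers of s2f_0000923008 at 3.33 µg/g lie at or below 4.07 CPM and those at 33.3 µg/g at or above 11.9 CPM.

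Across all features the doses did not overlap on TMM-scaled log2 CPM at 183 (1.44%), of which 67 (0.527%) were higher and 116 (0.912%) lower at 33.3 µg/g. Were doses assigned at random, a feature would separate this way with probability 0.00794, the smallest exact permutation p. Whether the 1.44% exceeds that was not tested, as features are not independent. Of the 183, 160 were shown equal within 2-fold, beside 84.8% of all features tested, and their median difference was 1.23-fold. Set against the mean of all solvent livers, the lower dose lay between solvent and the higher dose at 57 of them, the higher dose lay between solvent and the lower dose at 75, and solvent lay between the doses at 51. Without solvent replicate 2 these counts were 73, 66 and 44. The 183 were picked because the doses separated, and the orders were not counted over all features tested, so the counts have no background.

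Of the 189 features other than s2f_0000923008 that differed by over 2-fold in the point estimate, 144 were higher at 33.3 µg/g and 45 lower. Of the non-overlapping features 9 differed by over 2-fold in the point estimate, all higher at 33.3 µg/g. Beside s2f_0000923008, 1 of them is singled out here after its values were seen. It was at 0 to 0.721 CPM in solvent livers, at 3.01 to 13.7 CPM at 3.33 µg/g and at 15.9 to 25.4 CPM at 33.3 µg/g, so its 3 groups did not overlap. Between doses it differed by 1.39 on the log2 scale (SE 0.39) and did not pass the test (edgeR adjusted p = 0.733). Of the other 7, 5 had a mean of at most 2.88 CPM at 33.3 µg/g, and the 7 log2 differences ran from 1.06 to 1.85.

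DESeq2 called 38 features between doses (0.302% of the 12594 with an adjusted p), 17 higher and 21 lower. In the edgeR fit, 31 of the 38 were shown equal within 2-fold and 1 was called; their median absolute log2 difference was 0.43. Lower at 33.3 µg/g, edgeR called 0 features, with 444 at an unadjusted p under 0.05. In either direction limma-voom called 0, with 768 at an unadjusted p under 0.05. Leaving out replicate 5 at 3.33 µg/g, a liver that stood apart on the first principal component, raised the features at an unadjusted edgeR p under 0.05 from 845 to 2003 (15.7%), of which 1152 were higher and 851 lower. After adjustment edgeR called 0 of them, as did limma-voom with 1706 at an unadjusted p under 0.05, and the smallest edgeR adjusted p was 0.114. DESeq2 then called 164, including 37 of its 38 with the same sign, and 118 of the 164 were shown equal within 2-fold. Of all features, 83.0% were shown equal within 2-fold without that liver.

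The most abundant features were mostly shown equal within 2-fold between the doses. The most abundant feature of exposed livers was at 38699, 32414, 22600, 51301 and 35778 CPM at 33.3 µg/g, and at 35698 to 41987 CPM in 4 livers at 3.33 µg/g but at 11650 CPM in replicate 5. The doses overlapped, the ratio was 1.03 with a 95% interval of 0.565 to 1.89, and it was shown equal within 2-fold (adjusted p of equality = 0.0223). Solvent livers had 1834 to 10798 CPM.

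Of the 10 most abundant features, 8 were shown equal within 2-fold; over all features tested the share was 84.8%. Those that were not ranked second and sixth. Rank 2 averaged 17407 ± 6773 CPM at the higher dose and 20599 ± 10619 CPM at the lower one (SD, n = 5 per dose), a ratio of 0.814 with a 95% interval of 0.387 to 1.72. Rank 6 had 6310 ± 1734 and 7201 ± 3837 CPM (SD, n = 5 each), a ratio of 0.835 with a 95% interval of 0.409 to 1.71. Both spread widely at the lower dose, from 7158 to 33438 CPM and from 2108 to 11009 CPM. The narrowest was rank 4, at 9810 to 10238 CPM at 33.3 µg/g and 8866 to 10419 CPM at 3.33 µg/g, a ratio of 1.02 with a 95% interval of 0.848 to 1.23.

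Of the features that rose most from solvent, the first was shown equal between doses. The largest increase, which is also rank 3 in abundance, went from 0 to 2.96 CPM in solvent livers to 18762, 11154, 9930, 17307 and 15497 CPM at 33.3 µg/g. At 3.33 µg/g it was at 13747 to 19098 CPM in 4 livers and at 5935 CPM in replicate 5. The doses overlapped, with a ratio of 0.944 and a 95% interval of 0.532 to 1.67, and equality within 2-fold was shown (adjusted p of equality = 0.0210).

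Ranks 2 to 5 of the increases were not called and not shown equal. Their ratios between doses were 1.40, 1.07, 1.54 and 1.06, and their 95% intervals included 1 and reached up to 2.40 to 3.30. In each of them replicate 5 was the lowest of the 5 livers at 3.33 µg/g. For the third increase it held 242.6 CPM where the other 4 livers of that dose held 2281 to 4482 CPM.

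Among the 5 largest decreases from solvent, 3 were too low in exposed livers to be tested between doses. They held 7.27 to 12.95, 2.265 to 27.75 and 9.22 to 19.75 CPM in solvent livers and at most 1.07 CPM in any exposed liver. The third largest was at 0.452 to 2.20 CPM at 33.3 µg/g and at 1.004 to 1.504 CPM at 3.33 µg/g, with a ratio of 1.02 and equality within 2-fold shown (adjusted p of equality = 0.0154). The fifth was at 0.774, 13.9, 2.77, 0.677 and 2.04 CPM at 33.3 µg/g and at 0.427 to 1.82 CPM at 3.33 µg/g. The doses overlapped there, replicate 2 at 33.3 µg/g was high, and the feature was not called (edgeR adjusted p = 0.747).

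**Figure D4:**
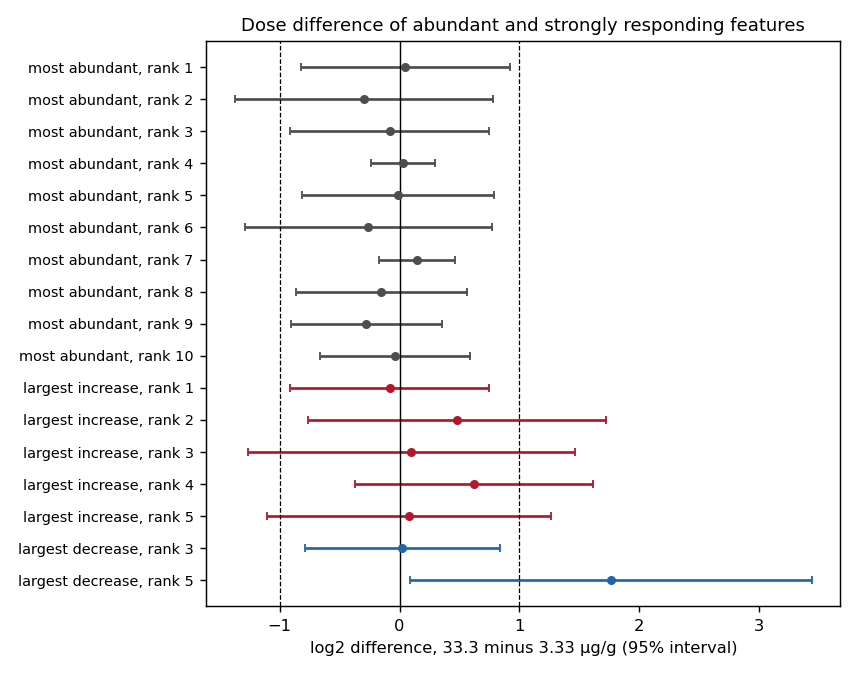
Log2 difference between the doses (horizontal, 33.3 minus 3.33 µg/g, with 95% intervals from the edgeR fit) of the 10 most abundant features and of those among the 5 largest increases and 5 largest decreases from solvent that were tested. Dashed lines mark 2-fold; rank 3 in abundance and the largest increase are one feature, and all intervals but that of the fifth decrease include 0.

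Features were also sorted by their response to both doses pooled against solvent, a contrast that weighs the doses equally. Of 13014 features, 16.5% rose and 18.2% fell; without solvent replicate 2, of 13066 features 22.9% rose and 22% fell. Among 2147 that rose and were tested between doses, 2000 (93.2%) were shown equal within 2-fold and 0 were called by edgeR, with 102 higher and 130 lower at an unadjusted p under 0.05 (10.8% together, against 6.64% of all features). Among 2295 that fell, 2020 (88.0%) were shown equal and 1 was called, s2f_0000923008. Among 8275 not called against solvent, 81.8% were shown equal. Beside 84.8% of all features, the share shown equal was 67.2% of 393 that rose at least 2-fold, 38.4% of 99 that rose at least 4-fold and 44.4% of 266 that fell at least 4-fold. Their median standard errors on the log2 scale were 0.28, 0.38 and 0.42, against 0.16 over all features.

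Most strong increases were higher at the higher dose with all livers, by a share that fell when 1 library was left out. Each time a library was left out the features were sorted anew, so the sets differ. Of 99 features that rose at least 4-fold, 76 (76.8%) were higher at 33.3 µg/g, with a median log2 difference of 0.31 against 0.00 over all features. Without replicate 5 at 3.33 µg/g, 56.4% of 110 such features were higher and the median was 0.11. For all features of that fit the values were 51.9% and 0.01. Whether these shares differ was not tested. The strong increases were not matched to all features in abundance. With all livers, 62.4% of all features from 1 to 10 CPM were higher at 33.3 µg/g and 48.5% from 10 to 100 CPM. Of 266 features that fell at least 4-fold, 47.4% were higher at 33.3 µg/g, with a median of -0.03, or 0.02 under scaling by library size. Without replicate 5 at 3.33 µg/g the values were 45.7% of 289 and -0.08, and without solvent replicate 2 they were 34.6% of 246 and -0.14. Without both libraries, 25.7% of 245 such features were higher and the median was -0.30, whereas for 141 features that rose at least 4-fold the values were 58.9% and 0.11. Of features that rose at least 2-fold, 67.7% of 393 were higher with all livers and 55.9% of 433 without replicate 5 at 3.33 µg/g. The share was 72.9% of 560 without solvent replicate 2 and 63.1% of 567 without both libraries. No feature that rose at least 4-fold passed the edgeR test between doses in any of these fits; in the fit to all exposed livers 12 of the 99 had an unadjusted p under 0.05, all higher.

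Levels of strongly responding features in single livers overlapped between doses. Relative to the mean of the 4 solvent livers other than replicate 2, the median log2 level of 127 features that had risen at least 4-fold was 3.03, 2.84, 2.49, 3.12 and 2.86 at 33.3 µg/g. At 3.33 µg/g it was 2.60, 2.79, 2.69, 2.78 and 2.06. For 246 features that had fallen at least 4-fold it was -3.27 to -2.61 at 33.3 µg/g and -3.67 to -2.27 at 3.33 µg/g, lowest in replicate 5. Solvent replicate 2, which received no EE2, was at -2.69 on the latter set, inside the exposed range, and at 0.89 on the former; the other solvent livers were at -0.49 to 0.28 and -0.14 to 0.18. Both sets came from the sorting without solvent replicate 2 and were chosen with all the other libraries. The values therefore describe the livers, are not a measure of exposure alone and test nothing.

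Equally exposed livers were about as far from each other as livers of different doses. In the median feature 6.30% of the variance among the 10 livers lay between doses. With so few livers some share falls between groups without any dose difference, and that level was not computed. The root-mean-square log2 distance between libraries had a median of 0.601 within 33.3 µg/g, 0.509 within 3.33 µg/g and 0.589 between doses. For 9 of 10 livers the nearest other liver was of the same dose, the exception being replicate 5 at 3.33 µg/g, which was nearest to replicate 3 at 33.3 µg/g. Yet 5 of 10 were closer to the mean of the other dose (5 livers) than to the mean of the rest of their own (4 livers). A mean of 5 livers varies less than a mean of 4, which tilts this count toward the other dose. The size of that tilt was not computed.

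A single axis held 54.0% of the variance among exposed livers, and both doses were spread along it. On this first principal component the livers at 33.3 µg/g were at -30.4, 20.4, 52.1, -32.4 and 12.1, and those at 3.33 µg/g at -35.8, -26.9, -26.8, -4.89 and 72.6. The means by dose were 4.36 ± 35.9 and -4.36 ± 44.5 (SD, n = 5 each; exact permutation p = 0.762, adjusted 0.952). On the second component, with 10.03% of the variance, the means were -12.5 ± 10.2 and 12.5 ± 11.1 (SD, n = 5 each; exact permutation p = 0.0159, adjusted 0.0794). One liver of each dose lay within the range of the other dose there. Projected onto the first component, solvent replicate 2 was at 65.0 and the other 4 solvent livers between -37.2 and 16.1.

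Most features in which replicate 3 at 33.3 µg/g departed from the others of its dose also departed in replicate 5 at 3.33 µg/g, but not the reverse. Among the 9293 features averaging 10 CPM or more, replicate 5 at 3.33 µg/g was over 2-fold above the median of its 4 companions at 493 and below it at 700. Replicate 3 at 33.3 µg/g was above at 297 and below at 178. The lists had 226 features above in common, 76.1% of the shorter list and 45.8% of the longer, and 150 below, 84.3% and 21.4%. Only 4 features departed in opposite directions. The other 8 exposed livers departed above at 22 to 80 features and below at 10 to 217. Below, replicates 1 (217) and 4 (201) at 33.3 µg/g had 133 features in common. Replicate 5 at 3.33 µg/g also shared 44 of the 64 above and 24 of the 25 below in replicate 2 at 33.3 µg/g. With replicate 4 of its own dose it shared 20 of 38 above and 50 of 71 below. Against replicates 1 and 4 at 33.3 µg/g, 161 and 185 features departed in opposite directions.

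Solvent replicate 2 departed from the other solvent livers in the same direction at 283 of the 493 features above (57.4%) and at 470 of the 700 below (67.1%). Over all 9293 features it was above at 9.07% and below at 15.02%. In all, 153 features were above and 96 below in these 3 livers, 1 from each group.

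Many abundant features were low in replicate 5 at 3.33 µg/g. Of the 104 features at 1000 CPM or more it was over 2-fold below its companions at 43 and above at 1. Its 20 most abundant features held 9.41% of its counts, where the other livers at 3.33 µg/g had 14.95 to 19.77% and those at 33.3 µg/g 12.44 to 19.85%. Its total of 15955207 counts was inside the range of its dose. Of the 700 features it had below, 17.1% had risen and 28.9% had fallen with exposure, against 20.7% and 17.7% of all 9293. Of the 493 above, 3.25% had risen and 1.22% had fallen. The sorting into risen and fallen used this liver too, so these shares depend on its own departures and test nothing. Cell type and RNA quality could not be read from unnamed features, and their part in this spread was not tested.

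Among features of at least 100 CPM, the widest spread within the higher dose was in one at 75.7, 425, 2439, 88.4 and 366 CPM. At 3.33 µg/g the same feature was at 75.3 to 143 CPM in 4 livers and at 1834 CPM in replicate 5. The widest at the lower dose was at 14.1 to 56.9 CPM in 4 livers and 621 CPM in replicate 5, and at 17.1 to 201 CPM at 33.3 µg/g. In both, the highest liver of each dose was the one highest on the first component. The third widest at 33.3 µg/g ran the other way, at 428 and 370 CPM in replicates 1 and 4 and at 43.8 to 82.0 CPM in the rest.

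**Figure D5:**
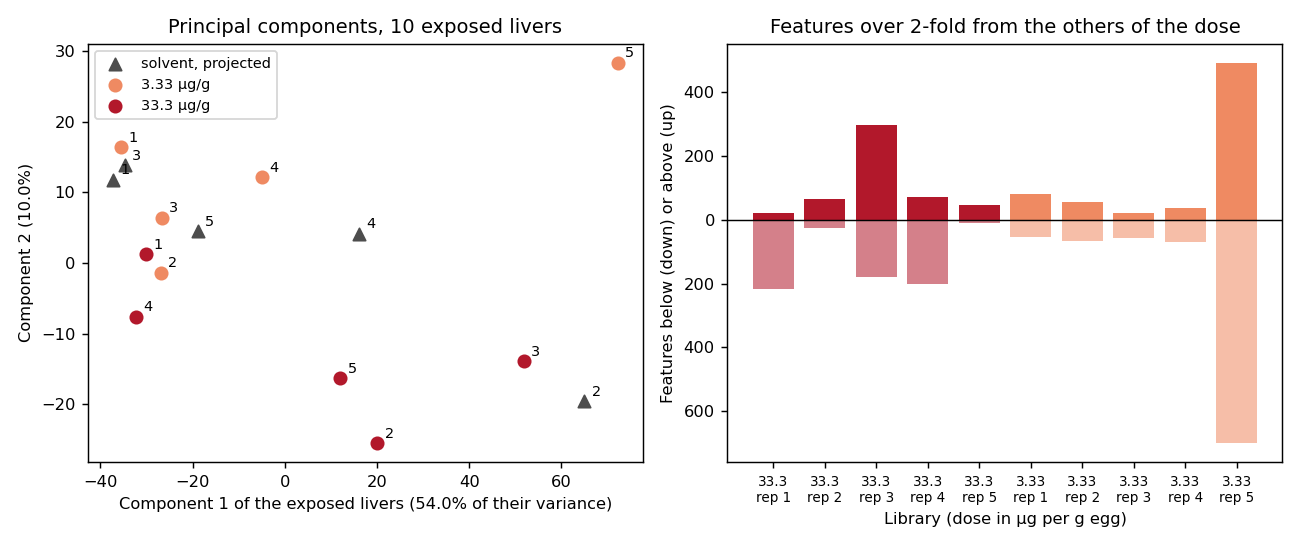
Left, scores of the 10 exposed livers on their first 2 principal components, with solvent livers placed by the same projection (numbers are replicates). Right, number of features of at least 10 CPM in which each liver was over 2-fold above (up) or below (down) the median of the other 4 of its dose. Replicate 5 at 3.33 µg/g had the most, with 493 above and 700 below. Replicate 3 at 33.3 µg/g came next above, with 297, while its 178 below were fewer than in replicates 1 (217) and 4 (201) of that dose.

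Which dose was more variable depended on that liver. The common biological coefficient of variation was 0.271 at 33.3 µg/g and 0.320 at 3.33 µg/g, a ratio of 0.846, beside 0.446 in solvent (0.236 without solvent replicate 2). Without replicate 5 the lower dose had 0.172, and the ratio, with all livers at 33.3 µg/g kept, turned to 1.57. The higher dose had 0.205 without replicates 2 and 3, its highest on the first component (3 livers left). The SD of log2 CPM was larger at 33.3 µg/g in 37.5% of features with all livers.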

How the data were processed

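Per the labels, RNA of left-lobe liver was sequenced in 15 samples. The authors deposited whole-number counts per feature, taken as unnormalised because library totals differ. Not given in the sources used here are the aligner, counting program, reference, strand setting and what a feature stands for, so reads of near-identical sequences may be split or merged. Columns were matched to samples by dose class and final digit, read as dose and replicate; 0 were left over. No pair of livers within a dose agreed within sampling noise (lowest chi-square per degree of freedom 16.4).

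Only the 10 exposed libraries entered the test between doses: edgeR quasi-likelihood F-test, trimmed-mean (TMM) scaling, default filter (minimum count 10, total 15), two-sided, Benjamini-Hochberg adjustment. Equality used 2 one-sided t-distributed tests with the fit's standard errors and 10.4 degrees of freedom. Printed CPM are per library total; log2 differences use TMM, and log2 CPM a prior count of 2. Both procedures were run on simulated data in which each feature varied independently. The real livers shared an axis of spread across features, so that run cannot tell how the tests behave under it. The response to both doses pooled was fitted to all 15 libraries. Alternatives were other scalings, filters, tools, margins, a replicate block and leaving out libraries. Features were given by ID for the 2 higher and 2 lower with the smallest p between doses (mean of at least 1 CPM), and by rank for the most abundant, the largest changes from solvent (groups not overlapping) and the widest spread (at least 100 CPM). The comparison, lists and tests were chosen with earlier results of these data known. The software was DESeq2 1.42.0, edgeR 4.0.16 and limma 3.58.1 under R 4.3.3.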

Additional observations from a re-analysis of the deposited data

Results flagged for a closer look

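Of 99 groups of 5 values examined, 30 held a liver farther from the other 4 than Dixon's 95% critical value of 0.71 allows; chance gives about 1 in 20 for values not chosen for their spread, and many of these values are linked through 1 library. In solvent replicate 2 there were 13, in replicate 5 at 3.33 µg/g 8 and at 33.3 µg/g 7.

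Replicate 5 at 3.33 µg/g lay apart at 72.6 on the first component (others at most -4.89) and at a distance of 0.901 from the mean of its dose (others at most 0.497). It held 11650 CPM of the most abundant feature (others at least 35698), 8752 CPM of rank 7 (others at most 6066) and 0.125 CPM of the decrease ranked 2 (others 0). It also held 1834 and 551.7 CPM of the features ranked 1 and 2 in spread at 33.3 µg/g and 620.6 CPM of the widest at 3.33 µg/g (others at most 143.4, 59.8 and 56.9).

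At 33.3 µg/g, replicate 3 held 57.97 CPM of s2f_0001953001 (others at most 46.7) and 2439 and 599.7 CPM of the features ranked 1 and 2 in spread. Replicate 2 held 0.382, 0.534, 1.07 and 13.88 CPM of the decreases ranked 1, 2, 4 and 5 (others at most 0.0629, 0.153, 0.204 and 2.77).

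Solvent replicate 2 held 69.81 CPM of s2f_0001953001 and 326.7, 6320, 87.83, 30.08 and 30.17 CPM of abundance ranks 2, 5, 6, 8 and 9, and its 20 most abundant features took 10.04% of its counts (others at least 25.6%). It held 2.24 CPM of the increase ranked 3, 4.57 and 415.8 CPM of the decreases ranked 3 and 5, 190.8 and 85.59 CPM of the features ranked 2 and 3 in spread at 33.3 µg/g and 326.7 CPM of the widest at 3.33 µg/g. Solvent replicate 4 held 637.1 CPM of the widest feature at 33.3 µg/g, and solvent replicate 3 held 0.0581 CPM of the increase ranked 2, where the others had 0.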

How the results depend on the processing

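The edgeR call between doses numbered 1 with a robust fit, without a filter, with at least 5 CPM required in 5 libraries, with library sizes alone or median-of-ratios scaling, and an adjusted p under 0.1. It numbered 0 with all 15 libraries fitted, with limma-voom, with the replicate number as a block (replicate block) and without the 3 livers highest on the first component (an alternative chosen after seeing the data), where 479, 768, 564 and 993 features had an unadjusted p under 0.05. It numbered 38 with DESeq2, and, also added after seeing the data, 164 with DESeq2 and 0 with limma-voom without replicate 5 at 3.33 µg/g. Leaving out each exposed liver in turn gave 0 to 1 calls. The cause of these shifts was not tested.

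Same-numbered livers of the doses share only a number: the correlations of their deviations from the dose means were -0.42 to 0.44, and 2 of 5 correlated best with their own number. The count shown equal within 2-fold was 10762 under the block, 10351 to 10764 when each liver was left out and 9731 to 10991 under the other alternatives with that margin, against 1026 within 25%. The number of features tested differed between settings, so similar counts are not similar shares. Without a filter 10590 were shown equal, a smaller share than the 84.8% of the main fit. All features with a count in an exposed library were then tested (187 of 16181 had none). The ratio of the coefficients of variation ranged from 0.673 to 1.57 when each liver was left out, above 1 only without replicate 5 at 3.33 µg/g, and was 0.8437 to 0.8475 under the other alternatives. The pooled response called 4521 features, and 3607 to 5870 when each liver was left out; scaling by library size moved its split from 2150 raised and 2371 lowered to 3826 and 924. The median difference between doses of all features moved by under 0.1 on the log2 scale under each scaling. Of the 1926 features neither called nor shown equal, 1370 were under 10 CPM; depth and spread among livers were not separated there.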
